A study of Mus musculus with 32 samples.

Results

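*Hmox1* encodes heme oxygenase 1, the inducible enzyme that opens the heme ring and releases iron, biliverdin and carbon monoxide. It was described together with 9 genes that act around it, namely *Hmox2*, *Blvra*, *Blvrb*, *Fth1*, *Ftl1*, *Slc40a1*, *Hamp*, *Tfrc* and *Trf*. These 10 genes were selected by symbol out of 24646 genes measured, and each had 1 row in every tissue. *Hmox1* was singled out because its 4 knockout values lay below its 4 wild-type values in all 4 tissues, so its values are given as a description without a test. Liver, epididymal white fat (eWAT), inguinal white fat (iWAT) and brown fat (BAT) came from male *Gpr146* whole-body knockout mice and their wild-type littermates on the C57BL/6J background, 20 weeks old, kept on a high-fat diet over 3 months and fasted overnight before collection. There were 4 mice per genotype and tissue, each measured on 1 Affymetrix Mouse Gene 2.1 ST array (32 arrays). Diet, sex, fasting and strain were shared by all groups, and the receptor was missing from every cell type of the knockout, so a difference in 1 tissue cannot be assigned to the loss of *Gpr146* in that tissue. The titles of the 4 knockout livers name both genotypes, and these livers were grouped as knockout by their source name and genotype entry. Mouse numbers were taken from the labels, and p-values measure the spread between these mice.

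Heme is broken down mainly by macrophages that take up old red cells or debris, such as Kupffer cells of the liver and splenic macrophages, but most cells can induce *Hmox1* under oxidative or heat stress through NRF2, heat shock factors and the heme-sensitive repressor BACH1. Biliverdin reductases turn biliverdin into bilirubin, ferritin made of *Fth1* and *Ftl1* chains stores the iron, and ferroportin, encoded by *Slc40a1*, is the iron exporter of animal cells. Hepcidin, encoded by *Hamp* and made mainly by hepatocytes, causes ferroportin to be degraded. Transferrin, encoded by *Trf*, carries iron in plasma, and the transferrin receptor *Tfrc* takes it up. In fat, *Hmox1* and ferroportin are known to be abundant in iron-handling macrophages.

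The deposited values were taken to be on a log2 scale, on which a difference of 1 is a doubling, and to be normalized separately in each tissue. Array medians ranged from 3.00 to 3.06 (liver), 3.13 to 3.18 (eWAT), 3.65 to 3.73 (iWAT) and 2.82 to 2.86 (BAT). *Gpr146* was lower on every knockout array than on every wild-type array of each tissue, with log2 differences of -1.77 in liver, -1.53 in eWAT, -1.55 in iWAT and -1.16 in BAT. The liver and BAT labels fitted their defining markers, with *Alb* highest in liver and *Ucp1* highest in BAT. The eWAT and iWAT data were assigned by their deposited names, read as visceral and inguinal, which these markers do not check. In iWAT, 9 lymph node markers averaged 7.80, 7.85 and 7.55 in wild-type mice 1 and 2 and knockout mouse 2, and 5.57 in knockout mouse 4, against 3.25 to 3.48 on the remaining arrays. In BAT, 8 skeletal muscle markers averaged 6.59, 7.54 and 7.64 in wild-type mice 2 and 3 and knockout mouse 2, against 3.36 to 4.05 on the others. The values without these arrays are given beside the iWAT and BAT results.

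*Hmox1* was lower in the knockout in liver, eWAT, iWAT and BAT. In liver it measured 6.37, 5.86, 7.12 and 5.51 in wild-type mice 1 to 4 and 4.27, 5.28, 4.21 and 4.63 in knockout mice 1 to 4. The groups did not overlap, and the nearest values were 5.51 in wild-type mouse 4 and 5.28 in knockout mouse 2. The mean was 6.22 ± 0.70 (SD, n = 4) in wild-type liver and 4.60 ± 0.49 (SD, n = 4) in knockout liver, a log2 difference of -1.62 (standard error 0.32) or 3.07-fold lower. In eWAT the wild-type values were 7.70, 8.51, 7.70 and 8.52, and the knockout values 5.52, 7.05, 5.47 and 5.63. Knockout mouse 2 stood above the other 3 knockout mice and below every wild-type mouse. The eWAT mean was 8.11 ± 0.47 against 5.92 ± 0.76 (SD, n = 4 each), a difference of -2.19 (standard error 0.36), or 4.56-fold lower.

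In iWAT, *Hmox1* measured 6.82, 6.15, 6.64 and 7.10 in wild-type mice and 5.95, 5.96, 5.72 and 5.72 in knockout mice. The nearest values were 6.15 in wild-type mouse 2 and 5.96 in knockout mouse 2, and the knockout arrays were close to each other. The mean was 6.68 ± 0.40 against 5.84 ± 0.14 (SD, n = 4 each), a difference of -0.84 (standard error 0.19), or 1.79-fold lower. In BAT wild-type mice had 4.57, 5.32, 6.46 and 6.08, and knockout mice 3.55, 4.34, 3.81 and 4.14. Wild-type mouse 1 was the lowest of its group and lay just above knockout mouse 2. The BAT mean was 5.61 ± 0.84 against 3.96 ± 0.35 (SD, n = 4 each), a difference of -1.64 (standard error 0.35), or 3.13-fold lower. Without the 4 iWAT arrays with lymph node markers the difference was -1.03, and without the 3 BAT arrays with muscle markers it was -1.49. Among all 24646 genes, 4.16% in liver, 13% in eWAT, 3.86% in iWAT and 3.92% in BAT had 4 knockout values below all 4 wild-type values, and since *Hmox1* was chosen for that pattern nothing is read from its place among them.

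**Figure D1:**
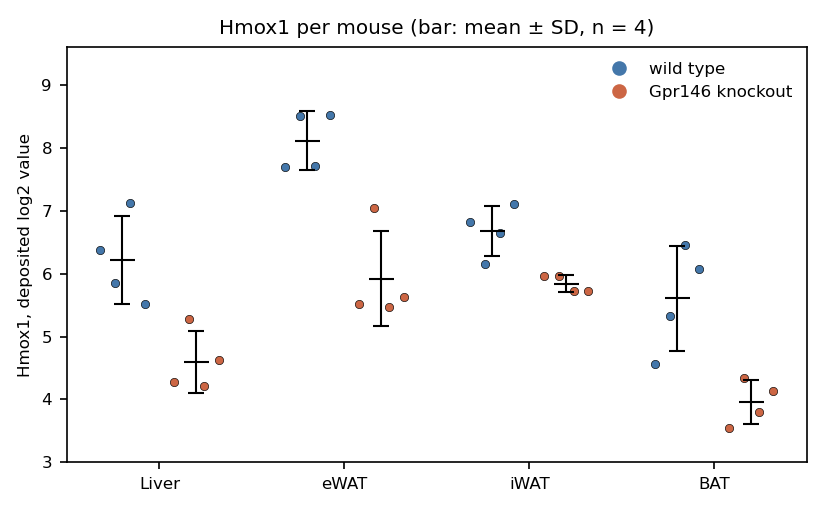
Log2 expression of *Hmox1* for each mouse in liver, eWAT, iWAT and BAT, with points for mice, bars for group means and error bars for the SD of 4 mice. Every knockout point lies below every wild-type point of its tissue, with the widest separation in eWAT (means 8.11 and 5.92) and the narrowest in iWAT (means 6.68 and 5.84).

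By wild-type mean on the separately normalized log2 scales, *Hmox1* was highest in eWAT (8.11), followed by iWAT (6.68), liver (6.22) and BAT (5.61). The eWAT range of 7.70 to 8.52 lay above the iWAT range of 6.15 to 7.10, whereas the ranges of iWAT, liver (5.51 to 7.12) and BAT (4.57 to 6.46) overlapped from each tissue to the next. In the knockout the order was eWAT (5.92), iWAT (5.84), liver (4.60) and BAT (3.96), and eWAT and iWAT did not differ beyond their spread. The iWAT array medians, 3.65 to 3.73, were the highest of any tissue, against 3.00 to 3.06 in liver. The place of iWAT against liver, and of iWAT against eWAT in the knockout, is therefore not read as a tissue difference. *Trf* and *Hamp* were near the top of the scale in liver, with wild-type means of 11.70 and 11.40, where the highest value on an array was 11.88 to 11.99. *Slc40a1* had its highest wild-type mean in liver (7.04) and BAT (6.41), and *Tfrc* in BAT (6.22).

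The remaining 3 genes of heme breakdown did not follow *Hmox1* across the tissues. *Hmox2*, the constitutive heme oxygenase, passed the test in no tissue (limma, Benjamini-Hochberg adjustment over 24646 genes, threshold 0.05), with differences of 0.08 in liver (adjusted p = 0.751), -0.38 in eWAT (0.095), -0.19 in iWAT (0.409) and -0.09 in BAT (0.737). Its eWAT values were 7.32, 7.19, 7.48 and 7.29 in wild-type mice against 6.97, 7.21, 7.03 and 6.53 in knockout mice. Knockout mouse 2 lay within the wild-type range, and without that mouse *Hmox2* passed (adjusted p = 0.0302), as it did with array weights (0.0296).

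*Blvrb*, a biliverdin reductase that is also a flavin reductase, fell in liver and in eWAT. It measured 6.08, 6.43, 6.22 and 6.28 in wild-type livers and 5.67, 5.63, 5.95 and 5.68 in knockout livers, groups that did not overlap, a difference of -0.52 (standard error 0.10, limma adjusted p = 0.044). *Blvrb* was the only one of the 9 genes beside *Hmox1* to pass in liver, where 0.661% of all genes passed. The liver call depended on single mice, since the adjusted p was 0.109, 0.118 and 0.105 without wild-type mouse 2, 3 or 4, and 0.132, 0.0678 and 0.13 without knockout mouse 1, 2 or 4, and it was 0.0646 with quantile normalization. In eWAT *Blvrb* measured 5.70, 5.92, 5.83 and 5.87 in wild-type mice and 4.68, 5.60, 4.28 and 4.52 in knockout mice, a difference of -1.06 (standard error 0.24, adjusted p = 0.020). Knockout mouse 2 again lay nearest to the wild-type group. Its eWAT adjusted p was between 0.0517 and 0.062 without any single one of wild-type mice 2, 3 and 4 or knockout mice 1 and 4. *Blvrb* gave -0.08 in iWAT (adjusted p = 0.771) and -0.14 in BAT (0.673).

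*Blvra*, the main adult biliverdin reductase, fell in eWAT, where 5 of the 9 genes passed against 15.2% of all genes. It measured 6.36, 6.43, 6.64 and 6.40 in wild-type mice and 5.65, 6.11, 5.21 and 4.89 in knockout mice, without overlap, a difference of -0.99 (standard error 0.23, adjusted p = 0.020). The adjusted p was 0.058, 0.0568 and 0.0549 without wild-type mouse 2, 3 or 4. In iWAT *Blvra* measured 5.30, 5.94, 6.22 and 6.36 in wild-type mice and 5.11, 5.56, 5.34 and 5.44 in knockout mice, groups that overlapped through wild-type mouse 1, a difference of -0.59 (standard error 0.22, adjusted p = 0.275). The differences were 0.07 in liver (adjusted p = 0.771) and 0.23 in BAT (0.386).

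The promoter of *Blvra* is shown because BACH1 and NRF2 act through antioxidant response elements (ARE, TGACNNNGC). Of this group, 7 genes were found in the RefSeq promoter table (GRCm38.p6), and *Hmox1*, *Slc40a1* and *Trf* were not matched. The first 250 bases of each promoter window were searched on both strands, and only *Blvra* of these 7 genes held such letters. For *Blvra*, 222 of these bases lie before the gene body, and elements outside the windows were not searched. Of all 32851 promoter windows, 10.2% hold these letters, and the match is a description and not a site. The stretch lies on the plus strand at chr2:127070407-127070628, directly upstream of the gene body (chromosome 2, 127070629 to 127097084), and capitals mark the match, which reads TGACNNNGC on the opposite strand and begins 21 bases before the start.
Blvra: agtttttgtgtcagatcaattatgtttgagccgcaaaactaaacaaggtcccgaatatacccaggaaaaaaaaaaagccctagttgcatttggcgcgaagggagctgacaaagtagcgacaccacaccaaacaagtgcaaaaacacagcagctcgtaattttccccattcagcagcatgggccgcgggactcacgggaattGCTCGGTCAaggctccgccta

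The ferritin chains differed from each other. *Ftl1*, the light chain, fell in eWAT, whereas *Fth1*, the heavy chain with the ferroxidase centre, passed in no tissue. *Ftl1* measured 8.92, 9.04, 8.95 and 9.04 in wild-type eWAT and 8.17, 8.72, 8.11 and 8.20 in knockout eWAT, a difference of -0.69 (standard error 0.13, adjusted p = 0.012). The groups did not overlap, and knockout mouse 2 was nearest to the wild-type mice. The eWAT call held without any single array. In BAT *Ftl1* measured 7.39, 7.19, 7.40 and 7.56 in wild-type mice and 6.99, 7.16, 7.05 and 7.15 in knockout mice, a difference of -0.30 (standard error 0.09, adjusted p = 0.224) with no overlap. *Ftl1* gave -0.16 in liver (0.492) and -0.28 in iWAT (0.388). *Fth1* lay at 10.84 to 11.43 on every array of the 4 tissues, with differences of -0.09 in liver (adjusted p = 0.652), -0.13 in eWAT (0.358), 0.01 in iWAT (0.972) and 0.08 in BAT (0.717). Its 4 BAT knockout values, 11.37, 11.43, 11.37 and 11.40, were all above the wild-type values of 11.37, 11.23, 11.34 and 11.32. With quantile normalization *Fth1* passed in eWAT (-0.29, adjusted p = 0.0447). Both genes have processed pseudogenes whose probes may share signal, and the deposited *Ftl1* value is an average of several probe sets.

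Ferroportin *Slc40a1* fell in eWAT, where the test passed, and was close to level in BAT. In eWAT it measured 4.76, 5.36, 4.64 and 4.98 in wild-type mice and 4.00, 4.17, 3.37 and 4.37 in knockout mice, a difference of -0.96 (standard error 0.22, adjusted p = 0.021), with adjusted p of 0.0631, 0.0616 and 0.0511 without wild-type mouse 2, wild-type mouse 4 or knockout mouse 1. In iWAT it measured 5.20, 4.74, 4.89 and 5.09 in wild-type mice and 3.17, 3.97, 3.65 and 4.14 in knockout mice. The iWAT groups were clearly separate, yet the difference of -1.25 (standard error 0.21) did not pass (adjusted p = 0.221) in a tissue where 0% of all genes did. Without knockout mouse 2 the iWAT difference was -1.33 and passed (0.0441), and without the 4 arrays with lymph node markers, which left 2 mice per group, it was -1.59 (0.0135). The same reduced set gave -1.06 for *Blvra* (0.0227) and -0.58 for *Ftl1* (0.0753), the other 6 genes had adjusted p of 0.167 to 0.558, and 916 of all 24646 genes passed, against 227 without knockout mouse 2 alone. In liver *Slc40a1* measured 6.81, 7.17, 7.44 and 6.75 in wild-type mice and 6.25, 6.58, 6.67 and 6.65 in knockout mice, without overlap, a difference of -0.50 (standard error 0.15) that did not pass (adjusted p = 0.177). In BAT the values interleaved, 6.52, 6.73, 6.29 and 6.10 against 6.40, 6.55, 6.45 and 6.42, a difference of 0.05 (adjusted p = 0.917). None of the 9 genes passed in BAT, where 0.0284% of all genes passed. Without the BAT arrays with muscle markers *Slc40a1* gave 0.12 (adjusted p = 0.928) and *Ftl1* -0.41 (0.639), and the smallest adjusted p of the 9 was 0.634 (*Hamp*, 0.52).

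**Figure D2:**
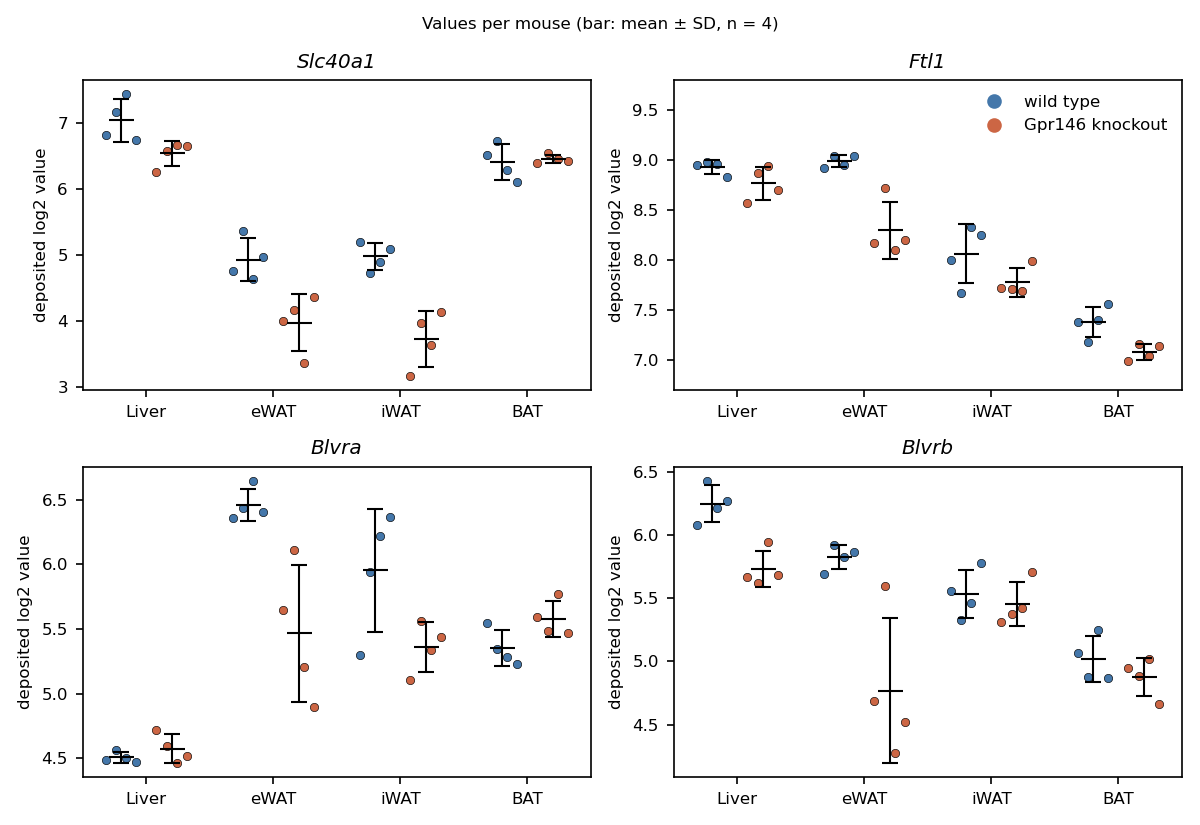
Log2 value of *Slc40a1*, *Ftl1*, *Blvra* and *Blvrb* for each mouse by tissue and genotype, with bars for the mean and SD of 4 mice. In eWAT the knockout points of all 4 genes lie below the wild-type points, while in BAT the groups of *Slc40a1* interleave (difference 0.05).

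Hepcidin *Hamp*, whose main source is the hepatocyte, did not pass in any tissue. In liver it measured 11.33, 11.27, 11.55 and 11.46 in wild-type mice and 11.48, 11.36, 11.52 and 11.56 in knockout mice, a difference of 0.08 (standard error 0.08, adjusted p = 0.752), close to the highest values on these arrays, where a change can be compressed. In eWAT and BAT it lay at 1.78 to 2.65 and 1.24 to 1.99, below the array medians. In iWAT it was high on 3 arrays, at 5.37 and 5.11 in wild-type mice 1 and 2 and 5.13 in knockout mouse 2, against 1.97 and 2.25 in wild-type mice 3 and 4 and 1.47, 1.90 and 2.59 in knockout mice 1, 3 and 4. These are the 3 arrays with the highest lymph node markers, while 10 hepatocyte markers averaged 2.94 to 3.11 in wild-type and 3.00 to 3.27 in knockout iWAT. *Hamp* has a near-identical neighbour, *Hamp2*, and the probes may not tell them apart.

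The *Hamp* promoter is shown because bone morphogenetic protein (BMP) and STAT3 signals act on this gene through short elements, and genes of the BMP branch are compared between genotypes further on. It lies on the minus strand of chromosome 7 at chr7:30944030-30944279 (GRCm38.p6, RefSeq), upstream of the gene body (30942368 to 30944029), and capitals mark GGCGCC, the core of the BMP element, beginning 109 bases before the start, and TTCTTGGAA, a match to the STAT letters TTCNNNGAA, beginning 97 bases before it. Of all 32851 windows, 9.59% hold GGCGCC and 7.02% hold TTCNNNGAA on either strand. The windows of *Hmox2* and *Tfrc* also hold GGCGCC.
Hamp: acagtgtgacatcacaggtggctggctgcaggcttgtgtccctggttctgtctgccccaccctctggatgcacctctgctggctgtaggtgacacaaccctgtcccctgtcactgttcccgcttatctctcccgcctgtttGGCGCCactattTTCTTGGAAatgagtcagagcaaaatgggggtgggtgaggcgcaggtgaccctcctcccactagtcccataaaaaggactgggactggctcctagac

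Of the iron uptake pair, *Trf* rose in eWAT and *Tfrc* passed nowhere. *Trf* measured 10.38, 10.18, 10.36 and 10.31 in wild-type eWAT and 10.75, 10.60, 10.48 and 10.79 in knockout eWAT, without overlap, a difference of 0.35 (standard error 0.09, adjusted p = 0.031). That call was sensitive, with adjusted p of 0.0572 to 0.0953 without any single one of wild-type mice 1 to 4 or knockout mice 1 and 4, and 0.0537 with a trended and robust prior. In liver, its main site of synthesis, *Trf* averaged 11.70 ± 0.02 in wild-type and in knockout mice (difference -0.00, adjusted p = 0.997), near the top of the scale. It gave -0.16 in iWAT (0.554) and -0.05 in BAT (0.968). *Tfrc* measured 4.82, 4.79, 5.07 and 4.77 in wild-type eWAT and 5.41, 4.48, 4.66 and 5.47 in knockout eWAT, with the knockout mice on either side of the wild-type range (0.14, adjusted p = 0.702). In BAT it measured 6.82, 6.06, 5.77 and 6.24 against 5.97, 6.00, 7.57 and 6.83 (0.37, adjusted p = 0.722), and its differences were -0.15 in liver (0.604) and -0.30 in iWAT (0.409).

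Over the 9 genes beside *Hmox1*, the median log2 difference was -0.09 (liver), -0.38 (eWAT), -0.28 (iWAT) and 0.05 (BAT), against 0.01, 0.03, 0.02 and 0.00 over all genes. In eWAT 4 of the 5 genes that passed were lower (*Blvra*, *Blvrb*, *Ftl1* and *Slc40a1*), against 10.7% of all genes lower, and 1 was higher (*Trf*), against 4.57% of all genes higher. Groups did not overlap for 2 of the 9 genes in liver (7.78% of all genes), 5 in eWAT (21.6%), 1 in iWAT (8.15%) and 2 in BAT (7.23%). The liver pair was *Blvrb* and *Slc40a1*, the iWAT gene *Slc40a1* and the BAT pair *Fth1* and *Ftl1*. An unadjusted p below 0.05 was reached by 2 of the 9 in liver (13.3% of all genes), 6 in eWAT (29.8%), 2 in iWAT (15.4%) and 3 in BAT (12.7%).

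**Figure D3:**
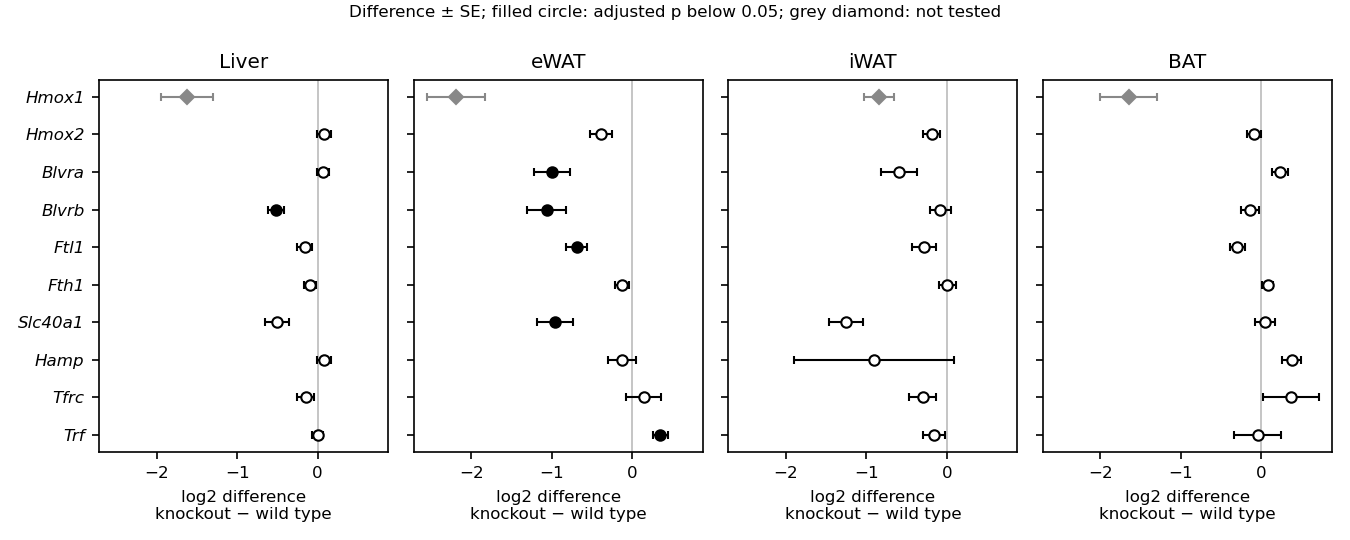
Log2 difference, knockout minus wild type, of the 10 genes in liver, eWAT, iWAT and BAT, with error bars for the standard error from limma (n = 4 mice per genotype), filled circles for genes past the threshold and grey diamonds for *Hmox1*, which was not tested. *Hmox1* lies below 0 in all 4 tissues, and of the other 9 genes 5 pass in eWAT, 1 in liver and none in iWAT or BAT.

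The pathway around these genes was followed in 82 further genes of heme synthesis, heme transport, iron transport, iron sensing and the NRF2 and BACH1 response. In liver 4 of the 82 fell and none rose, against 0.499% of all genes lower and 0.162% higher, and the median of the list was -0.10 against 0.01 over all genes. *Bmp2*, an endothelial ligand that drives hepcidin, fell by 1.09 (standard error 0.16, adjusted p = 0.0155), and *Smad7*, a feedback inhibitor of BMP signalling, fell by 0.66 (0.12, adjusted p = 0.0371). *Steap4*, a metalloreductase induced by inflammation, fell by 0.87 (0.14, adjusted p = 0.0215). *Me1*, the NADPH-producing malic enzyme and an NRF2 target, fell by 0.83 (0.11, adjusted p = 0.0109). *Bmp6*, the ligand that follows liver iron, gave -0.30 (adjusted p = 0.155), and *Id1*, a target of the same signal, gave 0.07. Of these calls, *Me1* kept its call without any single array. *Bmp2* lost it without wild-type mouse 3 (adjusted p = 0.0533) or knockout mouse 4 (0.0639), *Steap4* without wild-type mouse 2 (0.0628), wild-type mouse 3 (0.0547) or knockout mouse 4 (0.0764), and *Smad7* without any single one of wild-type mice 1, 3 and 4 or knockout mice 1, 3 and 4 (0.0667 to 0.116) or with quantile normalization (0.057). No gene of heme synthesis (11 genes) or heme transport (10 genes) passed in liver.

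In eWAT 21 of the 82 fell and 4 rose, against 10.7% and 4.57% of all genes, with a list median of -0.10 against 0.03. The falls were in iron transport (10 of 22), the NRF2 and BACH1 list (8 of 24) and heme transport (3 of 10), the rises were all in iron sensing (4 of 15), and none of 11 heme synthesis genes passed. *Slc11a1*, the metal transporter of the macrophage phagosome, measured 8.37, 8.41, 8.72 and 8.59 in wild-type mice and 5.39, 7.81, 6.41 and 5.53 in knockout mice, a difference of -2.24 (standard error 0.45, adjusted p = 0.0142). *Slc48a1*, which moves heme out of the phagolysosome, averaged 9.10 ± 0.09 in wild-type and 8.05 ± 0.43 in knockout mice (SD, n = 4 each), a difference of -1.05 (0.19, adjusted p = 0.0107). In both genes knockout mouse 2, at 7.81 and 8.58, was the nearest to the wild-type mice. *Steap3*, the ferrireductase of endosomes, fell by 1.06 (0.19, adjusted p = 0.0110), and the heme exporter *Flvcr1*, listed as *Mfsd7b*, fell by 0.75 (0.15, adjusted p = 0.0134).

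Among NRF2 targets in eWAT, *Gclm*, the modifier subunit of glutathione synthesis, fell by 0.83 (standard error 0.21, adjusted p = 0.0266), *Srxn1*, sulfiredoxin, by 0.77 (0.17, adjusted p = 0.0190), and *Pgd*, of the pentose phosphate pathway, by 0.74 (0.14, adjusted p = 0.0130). Without wild-type mouse 2, wild-type mouse 4 or knockout mouse 4, *Gclm* gave adjusted p of 0.0827, 0.0748 and 0.0519, and *Srxn1* 0.06, 0.0602 and 0.0524. *Id1* rose by 0.80 (0.16, adjusted p = 0.0134). Of the iron sensing genes, *Aco1*, whose protein is iron regulatory protein 1, was also higher (0.68, adjusted p = 0.0233), as were *Bmp6* (0.58, adjusted p = 0.0187) and *Atoh8* (0.40, adjusted p = 0.0293). The count of 25 genes was 12 without wild-type mouse 2 and 13 without wild-type mouse 4.

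In iWAT and BAT none of the 82 genes passed with limma, while 17 and 22 had an unadjusted p below 0.05, against 15.4% and 12.7% of all genes. The smallest p in iWAT belonged to *Ephx1*, epoxide hydrolase (-0.59, adjusted p = 0.2207), *Aco1* (0.79) and *Slc46a1*, a heme and folate carrier (0.63). Without knockout mouse 2, 4 genes of the iWAT list passed, among them *Ephx1* (-0.67, adjusted p = 0.0427) and *Aco1* (0.92, 0.0439), beside 227 of all 24646 genes. Without the lymph node arrays 6 of the list passed, beside 916 of all genes, with *Ephx1* at -0.78 (adjusted p = 0.0411), *Aco1* at 0.79 (0.0653) and *Slc46a1* at 0.52 (0.114). In BAT the smallest p belonged to *Sqstm1*, the autophagy receptor p62 (-0.61, adjusted p = 0.1255), *Tkt*, transketolase (0.71, 0.1515), and *Me1* (0.74, 0.1551). Without wild-type mouse 1 the first 2 of these passed (adjusted p = 0.0365 and 0.0419), beside 80 of all genes. Without the muscle arrays no gene of the BAT table passed, and *Sqstm1* gave -0.53 (0.634), *Tkt* 0.69 (0.651) and *Me1* 0.60 (0.698).

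**Figure D4:**
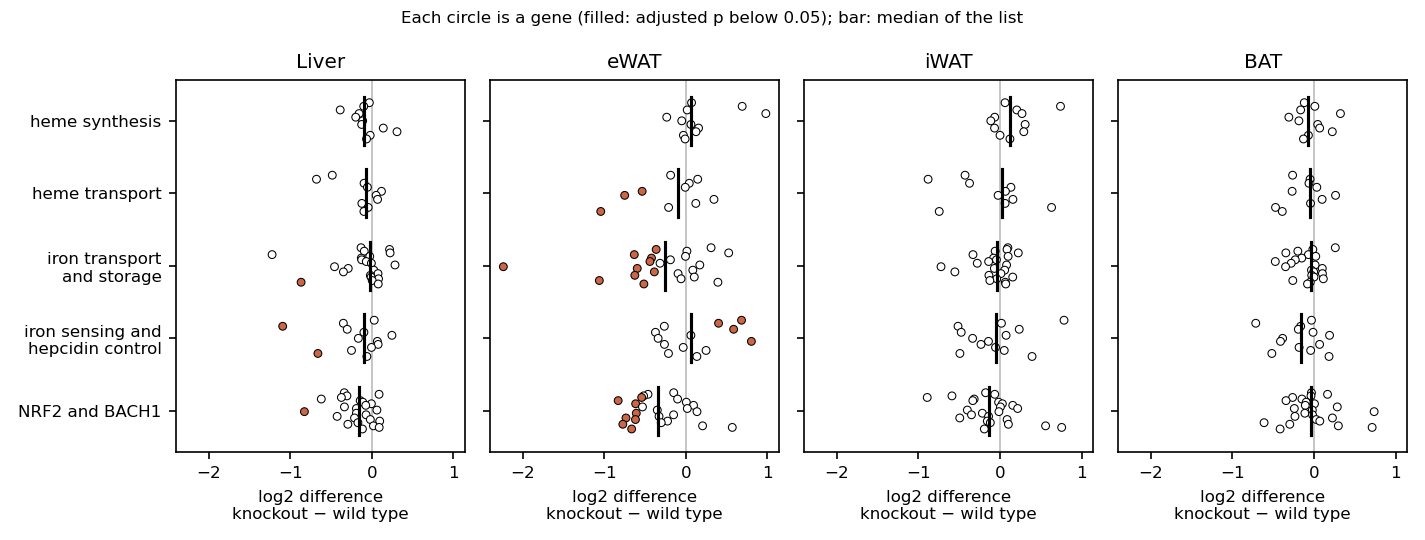
Log2 differences, knockout minus wild type, of the genes of each heme, iron and NRF2 list by tissue, with 1 circle per gene, filled where the gene passed, and a bar for the list median. Medians lie between -0.34 (NRF2 and BACH1 list, eWAT) and 0.12 (heme synthesis, iWAT).

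Cell type markers moved with *Hmox1* in eWAT. Of 13 macrophage markers, 12 fell in eWAT, against 10.7% of all genes, and the median difference was -2.06. Their mean lay at 8.27 to 8.48 in wild-type mice and at 5.87, 7.94, 6.53 and 6.14 in knockout mice 1 to 4, with knockout mouse 2 the highest, as for *Hmox1*. All 8 markers of lipid-associated macrophages fell (8.17 to 8.40 against 4.83 to 7.81), as did 5 of 10 markers of Kupffer and iron-recycling macrophages (mean of the list 5.26 to 5.52 against 3.91 to 5.001). Of 8 adipocyte markers, 7 rose, against 4.57% of all genes higher, and *Lep* fell. In such bulk tissue fewer macrophages and less RNA per macrophage cannot be told apart, and the part of macrophage content in the differences of *Hmox1*, *Blvra*, *Blvrb*, *Ftl1*, *Slc40a1*, *Slc11a1* and *Slc48a1* was not tested. Of 7 red cell markers, whose cells bring heme-rich blood into a sample, 3 rose in eWAT, against 4.57% of all genes higher. Their mean was 3.10 to 3.48 against 3.68 to 3.97, beside eWAT array medians of 3.13 to 3.18. In iWAT none of the 7 passed and none had a lower mean (3.26 to 3.44 against 3.53 to 3.64). The globin symbols *Hba-a1*, *Hbb-b2* and *Hbb-bt* were not matched, so these markers measure blood only in part.

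In liver no macrophage marker of 13 passed and 11 had a lower mean in the knockout (4.57 to 5.07 against 3.90 to 4.73). Their median difference was -0.66, beside -1.62 in *Hmox1*, and 9 had an unadjusted p below 0.05 (limma), against 13.3% of all genes. The 8 markers of lipid-associated macrophages did not follow this in liver, where 2 had a lower mean. None of the 8 passed, and their median difference was 0.07. All 10 Kupffer and iron-recycling markers had a lower mean, of which *C1qc* passed (-0.61, adjusted p = 0.0484). The median difference of these 10 was -0.92, and 9 had an unadjusted p below 0.05. Their mean lay at 5.39, 4.79, 5.84 and 4.83 in wild-type livers and 3.78, 4.94, 4.11 and 4.07 in knockout livers, and wild-type mouse 3 and knockout mouse 2 were the highest of their genotype for this mean and for *Hmox1*. In iWAT all 13 macrophage markers had a lower mean and none passed (6.43 to 7.27 against 5.61 to 6.72). Their median difference was -0.96, beside -0.84 in *Hmox1*, and 8 had an unadjusted p below 0.05, against 15.4% of all genes. In BAT none of the 13 macrophage markers passed and 12 had a lower mean, with a median difference of -0.16, beside a difference of -1.64 in *Hmox1*. An unadjusted p below 0.05 was reached by 3 of the 13, against 12.7% of all genes. The mean of the 13 lay at 4.59, 4.38, 4.89 and 4.59 in wild-type BAT and at 4.21, 4.82, 4.38 and 4.17 in knockout BAT. There knockout mouse 2 lay within the wild-type range and the other 3 below it, knockout mouse 3 only just. All 8 lipid-associated macrophage markers had a lower mean in iWAT and in BAT, and none passed there. The part of these macrophage lists in *Hmox1* was not tested.

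Heat shock genes share inducers with *Hmox1*. In liver 4 of 9 fell, against 0.499% of all genes, *Hspa1b* by 3.58 (adjusted p = 0.00167), *Hsph1* by 1.69 (0.0250), *Dnajb1* by 1.00 (0.00565) and *Hsp90aa1* by 0.85 (0.0155), and the mean of the 9 was 6.15 to 6.72 in wild-type and 5.26 to 5.70 in knockout livers. In eWAT 5 fell, against 10.7% of all genes, and *Hspd1* rose. The mean of the 9 in eWAT was 5.73 to 6.24 in wild-type and 5.28 to 5.69 in knockout mice. In BAT none passed and 6 had an unadjusted p below 0.05, against 12.7% of all genes, and the mean was 5.59, 6.93, 6.93 and 6.97 in wild-type mice 1 to 4 against 5.31 to 5.57 in the knockout. Without the muscle arrays the wild-type means left were 5.59 and 6.97. Wild-type mouse 1 was the lowest of its group in BAT for the heat shock mean and for *Hmox1*. In iWAT none passed (5.15 to 5.81 against 5.05 to 5.38). The part of the heat shock response, or of handling at collection, in *Hmox1* was not tested.

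**Figure D5:**
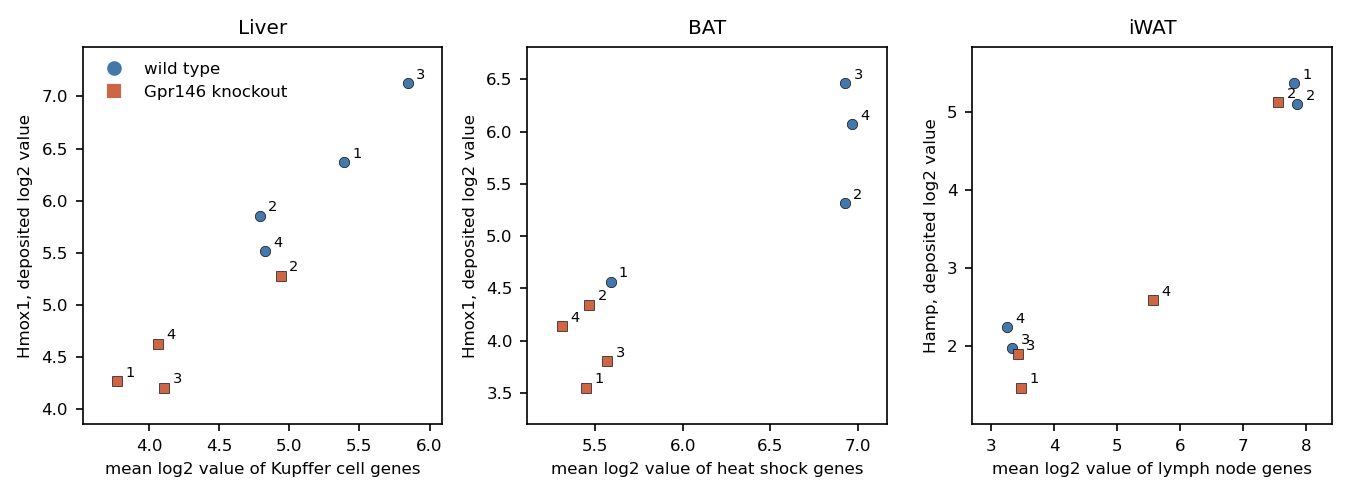
Log2 value of a gene on each array against the mean of a marker list on the same array, with mice numbered: *Hmox1* against Kupffer and iron-recycling markers in liver, *Hmox1* against heat shock genes in BAT, and *Hamp* against lymph node markers in iWAT. In BAT wild-type mouse 1 sits beside the knockout mice on both axes, and in iWAT the 3 arrays with *Hamp* above 5 have lymph node means of 7.55 to 7.85.

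To describe which genes varied with *Hmox1* from mouse to mouse, the mean of each tissue and genotype group was subtracted. Pearson correlation was then taken over the 32 arrays, which may share mice across tissues and which share dissection across genes. The 5 genes most like *Hmox1* were *Gpr77*, the second C5a receptor (r = 0.67), *Gm5441* (0.67), *Ms4a6d* (0.66), and the complement genes *C1qb* (0.66) and *C1qa* (0.65). This order was unstable, since 4 of the 5 stayed with array medians made equal, 1 stayed without BAT and 0 without any single one of liver, eWAT and iWAT. In iWAT alone *Gpr77* gave 0.05 and *Gm5441* 0.03, while *Ms4a6d* gave 0.80, *C1qb* 0.54 and *C1qa* 0.50. Of the other 9 genes, *Ftl1* was nearest (0.56), followed by *Blvrb* (0.38) and *Fth1* (0.37), while *Hamp* (-0.06) and *Tfrc* (-0.32) were not like it. By tissue *Ftl1* gave 0.32 in liver, 0.94 in eWAT, 0.56 in iWAT and 0.50 in BAT. *Blvrb* gave -0.52, 0.88, 0.51 and 0.05 in that order, and *Fth1* -0.07, 0.78, 0.71 and 0.13. The macrophage mean gave 0.64, with 0.91 in liver, 0.79 in eWAT, 0.49 in iWAT and 0.52 in BAT over 8 arrays each, while the Kupffer mean gave 0.53, with 0.93 in liver, 0.69 in eWAT, 0.06 in iWAT and 0.44 in BAT. The heat shock mean gave 0.38, with -0.19, 0.38, 0.19 and 0.74 in the same order.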

How the data were processed

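The authors deposited log2 expression values for liver, eWAT, iWAT and BAT, 1 per gene symbol and mouse, normalized between the arrays of a tissue. The software, probe summary and normalization are not given in the sources used here. Each tissue was tested on its own, over 24646 genes with a usable symbol and no filter on dim genes. Knockout and wild type were compared with limma 3.58.1 (R 4.3.3), with Benjamini-Hochberg adjustment over all genes and a threshold of 0.05. The procedure was tested on simulated data. Figures were drawn with matplotlib 3.10.9.

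The 10 genes, the pathway lists and the marker lists were chosen with earlier results of these data known. Named beside the 10 genes were, per tissue, up to 8 list genes past the threshold whose groups did not overlap, with the largest differences, or the 3 with the smallest p where none passed, and the 5 genes that correlated most with *Hmox1*. *Bmp6*, *Atoh8*, *Aco1* in eWAT, *Id1* in liver and the marker genes were named after their values were seen. Symbols unmatched in the tables were looked up by older names. Alternatives were quantile normalization, equal array medians, dim genes left out, a trended and robust prior, array weights, a block for the mouse number, the t-test of the methods and each array left out in turn. Leaving out arrays with lymph node or muscle markers was added after seeing the data. Promoters were read from a RefSeq table (GRCm38.p6), which matched 7 of the 10 genes. Precision is limited by having 4 arrays a group.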

Additional observations from a re-analysis of the deposited data

Results flagged for a closer look

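Single arrays stood apart from the other 3 of their group for 3 genes, measured as the gap to the nearest array over the range of the group, which chance sets off in about 1 in 20 groups. The rule was applied to both genotypes of all 10 genes in 4 tissues. The arrays named here are about as many as that rate gives, so nothing is read from their number. Knockout mouse 2 was the highest in eWAT for *Hmox1* (ratio 0.899) and for *Ftl1* (0.842). Knockout mouse 4 was the highest in iWAT for *Ftl1* (0.903), and wild-type mouse 3 was the highest in BAT for *Hamp* (0.938), at a level below the array median. *Bmp6* and *Atoh8* had groups that did not overlap in liver and eWAT, in opposite directions. *Bmp6* was 0.58 higher in knockout eWAT and differed by -0.30 in liver, and *Atoh8* was 0.40 higher in eWAT and differed by -0.35 in liver. The difference between the tissues was not tested, and the liver values did not pass limma's threshold.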

How the results depend on the processing

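No difference past the threshold changed direction under any alternative run. The *Hmox1* difference ranged over all of them from -1.85 to -1.32 in liver, -2.57 to -2.04 in eWAT, -1.03 to -0.66 in iWAT and -1.99 to -1.36 in BAT. Of the 9 genes beside it, the liver count of 1 was 0 with quantile normalization, the mouse number as a replicate block or the methods' t-test after adjustment, 2 with that t-test unadjusted, and 0 to 1 with each array left out. The eWAT count of 5 was 0 with the adjusted t-test and 1 to 6 with each array left out, with 1 without wild-type mouse 2 or 4 2 without wild-type mouse 3 or knockout mouse 1 and 3 without knockout mouse 4. The iWAT count of 0 was 1 with the unadjusted t-test, 2 without the lymph node arrays, a choice made after seeing the data, and 0 to 1 with each array left out. The BAT count of 0 was 2 with the unadjusted t-test and 0 with each array left out. Of the 82 list genes, the adjusted t-test called 0 in liver and 0 in eWAT, and the unadjusted one 15 in liver, 34 in eWAT, 16 in iWAT and 14 in BAT. Leaving out each array gave 1 to 4 in liver (1 without wild-type mouse 3 or knockout mouse 4), 12 to 31 in eWAT, 0 to 4 in iWAT and 0 to 2 in BAT, and leaving out the lymph node arrays gave 6 in iWAT. In eWAT the list split of 4 higher and 21 lower was 8 and 15 with quantile normalization and 9 and 24 with array weights. The replicate block gave 4 genes in eWAT, where *Trf* had an adjusted p of 0.0520, and 23 list genes there, and 4 list genes in liver. Residuals of same-numbered arrays correlated from -0.06 to 0.11 in liver and 0.00 to 0.16 in eWAT. They correlated from -0.38 to 0.67 in iWAT and 0.01 to 0.22 in BAT. Both ways, the same-numbered array was the best match for mice 2 and 4 in liver and 1 and 2 in eWAT. The same held for mice 2 and 3 in iWAT and 1 and 4 in BAT. For mice 1 and 3 in liver, 4 in eWAT, 1 in iWAT and 2 and 3 in BAT it was so neither way. These checks do not settle whether mouse numbers pair the samples. Leaving out dim genes moved the median of all genes by -0.11 in eWAT and -0.13 in iWAT. That median is taken over the genes kept, whose own differences this setting does not change. Arrays from bulk tissue give no cell counts, values near the top of the scale can be compressed, and those below the array median carry little signal.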
